A study of Homo sapiens with 6 samples.

Results

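The BCL2 family genes are the 10 genes BCL2, BCL2L1, BCL2A1, MCL1, BCL2L11, BBC3, PMAIP1, BAX, BAK1 and BID, which encode the central regulators of mitochondrial apoptosis. They were found by matching the Ensembl gene IDs of the deposited count tables to gene symbols, and all 10 were present among 58302 IDs, of which 32925 had a count. The data are RNA sequencing counts from 6 libraries of A375, a human melanoma cell line, in the form of a line that stably overexpressed HMGB2 (genotype HMGB2OE, 3 libraries) and a line that carried an empty vector (3 libraries). HMGB2 is a chromatin protein that binds and bends DNA. The HMGB2OE line was made by lentiviral transduction and drug selection, and the same cell line underlies both groups. The study reports its RNA sequencing replicates as technical, so the spread between libraries covers preparations of a line and not independent transductions.

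Apoptosis through mitochondria is decided by interactions within this family. The effectors BAX and BAK1 open the outer mitochondrial membrane, which releases cytochrome c and starts the caspase cascade. The pro-survival proteins BCL2, BCL-XL (from BCL2L1), BFL1 (from BCL2A1) and MCL1 hold the effectors and their activators in check. The BH3-only proteins BIM (from BCL2L11), PUMA (from BBC3), NOXA (from PMAIP1) and BID are induced or activated by stress and damage and neutralise the pro-survival proteins, and some of them activate the effectors directly. Melanomas are known for a strong dependence on MCL1 and for expression of BCL2A1 under the melanocyte regulator MITF.

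The libraries held between 45925053 and 56755212 reads assigned to genes, and depth did not separate the groups (exact two-sided permutation p = 0.8, where 3 libraries against 3 cannot go below 0.1). HMGB2 itself had normalized counts, that is counts divided by DESeq2 size factors, of 7250, 7729 and 7562 in the empty vector libraries and 15095, 16848 and 14609 in the HMGB2OE libraries. The groups did not overlap (log2 fold change 1.05, SE 0.10, DESeq2 adjusted p = 4.41e-22). Of 11 melanoma and melanocyte markers, 8 had a count in every library, with MITF, S100B, PRAME, CSPG4 and MCAM well expressed. The pigment cell markers MLANA, TYR and DCT stayed at or below 10.8 normalized counts, whereas PMEL, another pigment cell marker, had 49.6 to 67.0. SOX10 had no count in the column used, although the sum of the strand-specific columns held between 28863 and 56464 reads. Over all genes, the first of these columns held 50.07% to 50.17% of their reads, so the libraries carried no strand information. The SOX10 reads therefore cannot be assigned to its strand. Of 5 leukocyte markers, 2 had a count in every library. PTPRC was at 0 in every library, whereas LYZ had 488 to 701 normalized counts. Empty vector replicate 3 stood apart from the other empty vector libraries. KRT5, an epithelial keratin among the markers, had 5.05 and 11.5 normalized counts in empty vector replicates 1 and 2 but 279 in replicate 3, within the 200 to 289 of the HMGB2OE libraries. CSPG4, a melanoma surface proteoglycan, had 73844 and 73004 in replicates 1 and 2 and 42385 in replicate 3, beside 33872 to 45253 in the HMGB2OE libraries. Without this library no BCL2 family gene lost or gained a call, and BCL2L1, PMAIP1 and BID are given both ways below. The small log2 fold changes of BCL2, BCL2L11, BAX and BAK1 became -0.050, 0.014, -0.0052 and 0.023. HMGB2OE replicate 3 had 10.6% multimapped reads, against 2.58% to 4.89% in the other libraries (exact permutation p = 0.2 between groups). The 6 fibroblast markers, all with a count in every library, summed to 3788 to 5791 normalized counts with the empty vector and 5290 to 6966 in HMGB2OE cells. Their part in the results was not tested. In RNA from whole cultures, fewer cells of a type and less RNA per cell cannot be told apart.

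Across all genes, 498 (2.64%) of 18878 genes with an adjusted p were lower in HMGB2OE cells and 432 (2.29%) were higher, at a DESeq2 adjusted p under 0.05. Against this background, 4 of the 10 BCL2 family genes were lower and 0 were higher. The 4 genes that fell were the pro-survival genes MCL1, BCL2L1 and BCL2A1 and the BH3-only gene BBC3. PMAIP1, also lower, had an unadjusted p under 0.05 but was not called. With edgeR the same 4 genes were called lower and 0 higher, beside 1.52% and 1.28% of all genes. The median log2 fold change of the 10 genes was -0.18, beside 0.00 over all genes with an adjusted p. Libraries of the groups did not overlap for 5 of the 10 genes, all lower in HMGB2OE, whereas of the 16692 genes averaging at least 10 normalized counts 11.4% were apart in the lower and 11.4% in the higher direction.

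**Figure D1:**
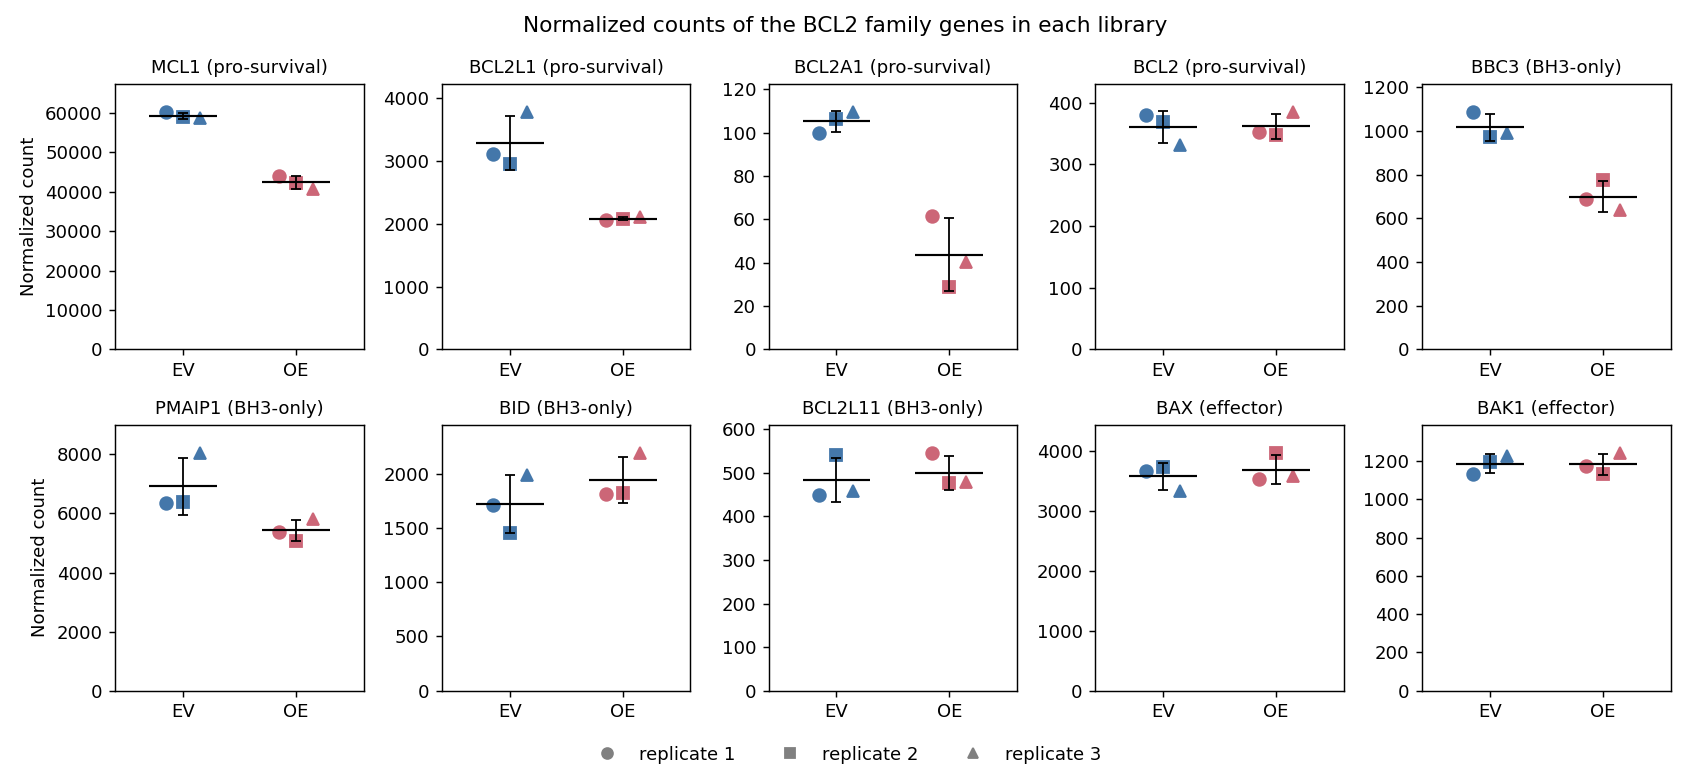
Normalized counts (vertical axes, from 0) of each of the 10 BCL2 family genes in the 3 empty vector (EV) and 3 HMGB2OE (OE) libraries. Points are libraries with a shape for each replicate number, horizontal lines are means and bars are SD (n = 3). For MCL1, BCL2L1, BCL2A1, BBC3 and PMAIP1 every HMGB2OE library lies below every empty vector library, and for the other genes the libraries overlap.

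Promoter sequences of 3 of the genes that fell are shown first, since these genes fell together, so that what lies before each start can be compared. Windows of 250 bases before each RefSeq gene start (GRCh38.p14) had an entry for 9 of the 10 genes, and MCL1 had none. The stretch printed for each gene is the part of the window that lies outside annotated exons, 5′ to 3′ on the strand of the gene, and capitals mark a match to one of the motifs searched other than the GC box, of which these 3 windows held none. The stretches are BCL2A1 at chr15:79971197-79971446 (minus strand), BBC3 at chr19:47232767-47232917 (minus strand) and BCL2L1 at chr20:31723990-31724213 (minus strand, before the more upstream of its starts).
BCL2A1: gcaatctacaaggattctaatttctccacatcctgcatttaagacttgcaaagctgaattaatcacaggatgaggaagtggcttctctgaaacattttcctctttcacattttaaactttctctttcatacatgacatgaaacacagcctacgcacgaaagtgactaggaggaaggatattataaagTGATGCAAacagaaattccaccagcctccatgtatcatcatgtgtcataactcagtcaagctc
BBC3: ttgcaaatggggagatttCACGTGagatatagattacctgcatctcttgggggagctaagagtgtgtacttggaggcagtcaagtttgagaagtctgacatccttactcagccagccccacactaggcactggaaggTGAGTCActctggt
BCL2L1: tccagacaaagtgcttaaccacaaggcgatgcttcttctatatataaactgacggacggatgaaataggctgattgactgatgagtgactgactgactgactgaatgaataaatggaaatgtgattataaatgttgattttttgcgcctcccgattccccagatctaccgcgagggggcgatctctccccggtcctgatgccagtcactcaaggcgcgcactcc

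The motifs searched on both strands were the AP-1 site TGANTCA, the CRE TGACGTCA, the E-box CACGTG, the C/EBP-ATF response element TGATGNAA, the kappaB site and the GC box GGGCGG. The BCL2A1 window held 1 match, the C/EBP-ATF response element TGATGCAA, 63 bases before the start, a motif that 3.15% of 35097 promoter windows held. BBC3 held an AP-1 site (TGAGTCA) 113 bases before the start and an E-box 232 bases before it, which 6.57% and 6.34% of windows held. The BCL2L1 window held no match to any motif searched. The E-box was not particular to BBC3, since the window of BAX held 4 and overlapping windows before 2 of the BID starts held the same 1. Neither BAX nor BID was called. PMAIP1 held 4 GC boxes and BCL2L11 held 3, a motif in 42.6% of all windows. BCL2L11, which was not called, also held a kappaB match 177 bases before its start, a motif in 5.06% of windows. A match of letters is a description of the sequence and not a binding site.

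MCL1, a short-lived guardian that restrains BAK1 and binds NOXA and BIM, was the most abundant of these transcripts and fell in HMGB2OE cells. MCL1 (ENSG00000143384, hg38 chr1:150560895-150579738, minus strand) had 60206, 58938 and 58629 normalized counts in empty vector replicates 1 to 3 and 44080, 42312 and 40786 in HMGB2OE replicates 1 to 3. Every HMGB2OE library lay below every empty vector library, with a gap several times the spread within either group. The mean was 59258 ± 836 (SD, n = 3) with the empty vector and 42393 ± 1649 in HMGB2OE cells, a fall of 28.5% (log2 fold change -0.48, SE 0.09, 95% interval -0.65 to -0.32, DESeq2 adjusted p = 2.15e-06).

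BCL2L1 encodes BCL-XL, which protects many solid tumour cells by holding BAX, BAK1 and BIM. BCL2L1 (ENSG00000171552, chr20:31664452-31723989, minus strand) had 3110, 2954 and 3772 normalized counts with the empty vector and 2062, 2067 and 2102 in HMGB2OE cells. The HMGB2OE libraries were nearly equal and all lower, and the empty vector spread came from replicate 3, the highest of all. The log2 fold change was -0.66 (SE 0.12, 95% interval -0.90 to -0.42, DESeq2 adjusted p = 1.27e-05), a fall of 36.6%, and it was -0.55 (adjusted p = 1.90e-07) without that library. BCL2L1 shares 1735 exonic bases with ABALON, an antisense long noncoding RNA on the plus strand, and the column used kept only 35.6% to 39.3% of the reads that the strand-specific columns together assign to BCL2L1. In that sum the mean was 8487 ± 1045 with the empty vector and 5700 ± 231 in HMGB2OE cells (log2 fold change -0.57, adjusted p = 1.16e-04), but reads from the antisense gene are then included. For ABALON the column used kept 0.729% to 1.71% of the reads in its own strand-specific sum. Shared reads in that sum cannot be told from those of BCL2L1, since the libraries carried no strand information. In the column used ABALON had 41.8 ± 6.90 against 48.2 ± 10.4 normalized counts (DESeq2 adjusted p = 0.874).

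BCL2A1 encodes BFL1, a pro-survival protein of NF-kappaB and MITF target genes. It showed the strongest relative fall of the 10 genes and was also the least counted of them. BCL2A1 (ENSG00000140379, chr15:79960892-79971196, minus strand) had 100.01, 106.3 and 109.5 normalized counts with the empty vector and 61.8, 28.6 and 40.5 in HMGB2OE cells. The groups did not overlap, while the HMGB2OE libraries differed among themselves, with a coefficient of variation of 38.6% against 4.57% with the empty vector. The log2 fold change was -1.26 (SE 0.31, 95% interval -1.87 to -0.66, DESeq2 adjusted p = 0.00193), a change of -58.4% with a 95% interval from -72.6% to -36.8%. These values rest on 99 to 120 reads per empty vector library and 29 to 68 per HMGB2OE library. The adjusted p was 0.0665 without HMGB2OE replicate 2, the lowest library.

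BCL2, the founding member of the family and the target of venetoclax, was held at a low level and did not move. BCL2 (ENSG00000171791, chr18:63123346-63320128, minus strand) had 380.8, 368.5 and 331.6 normalized counts with the empty vector and 353.3, 347.7 and 384.9 in HMGB2OE cells. The libraries of the groups were interleaved. The 95% interval of the log2 fold change was -0.27 to 0.28 (DESeq2 adjusted p = 0.995), so differences smaller than this range could not be detected.

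Of the BH3-only genes, BBC3 fell. BBC3 encodes PUMA, which binds all pro-survival members. BBC3 (ENSG00000105327, chr19:47220822-47232766, minus strand) had 1086, 971.7 and 991.6 normalized counts with the empty vector and 686.7, 774.2 and 635.9 in HMGB2OE cells. The groups were apart by more than the spread within either. The fall was 31.2% (log2 fold change -0.54, SE 0.13, 95% interval -0.79 to -0.29, DESeq2 adjusted p = 0.00129). It missed the threshold without empty vector replicate 1 (adjusted p = 0.0901), without HMGB2OE replicate 1 (0.0771) and without HMGB2OE replicate 3 (0.0669).

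PMAIP1 encodes NOXA, which binds MCL1 and BFL1 and promotes the degradation of MCL1. PMAIP1 (ENSG00000141682, chr18:59899996-59904305, plus strand) had 6352, 6381 and 8036 normalized counts with the empty vector and 5387, 5078 and 5810 in HMGB2OE cells. Every HMGB2OE library was below every empty vector library, and replicate 3 was the highest of each group. The log2 fold change of -0.35 (SE 0.13, 95% interval -0.61 to -0.10) did not pass the threshold (DESeq2 adjusted p = 0.103), and it was -0.23 (adjusted p = 0.0604) without empty vector replicate 3. With a term for the third replicates, an alternative chosen after seeing the data, it was -0.34 with an adjusted p of 5.29e-06.

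BCL2L11 and BID were not called. BCL2L11 encodes BIM, an activator that is held low by ERK signalling in BRAF-mutant melanoma, and BID is cleaved by caspase 8 and carries death receptor signals to mitochondria. BCL2L11 (ENSG00000153094, chr2:111119378-111168444, plus strand) had 449.5, 542.1 and 458.3 normalized counts with the empty vector and 545.0, 477.7 and 478.3 in HMGB2OE cells. BID (ENSG00000015475, chr22:17734138-17774770, minus strand) had 1709, 1458 and 1993 normalized counts with the empty vector and 1817, 1824 and 2188 in HMGB2OE cells. In both genes the groups overlapped. The log2 fold change of BCL2L11 was 0.05 (SE 0.14, DESeq2 adjusted p = 0.942). That of BID was 0.18 (95% interval -0.12 to 0.47, DESeq2 adjusted p = 0.698), and it was 0.30 (adjusted p = 0.0686) without empty vector replicate 3.

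The effectors did not pass the test either. BAX (ENSG00000087088, chr19:48954815-48961798, plus strand) had 3680, 3744 and 3330 normalized counts with the empty vector and 3542, 3967 and 3583 in HMGB2OE cells. BAK1 (ENSG00000030110, chr6:33572547-33580293, minus strand) had 1131, 1198 and 1230 with the empty vector and 1175, 1133 and 1241 in HMGB2OE cells. The libraries of the groups overlapped in each gene. The 95% interval of the log2 fold change was -0.16 to 0.25 for BAX (DESeq2 adjusted p = 0.926) and -0.21 to 0.21 for BAK1 (adjusted p = 0.995). For BAK1 the column used kept 75.4% to 77.5% of the reads that the strand-specific columns together assign to it. Of its 50-base words 14.4% also occur in other genes, chiefly the pseudogene BAK1P1.

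**Figure D2:**
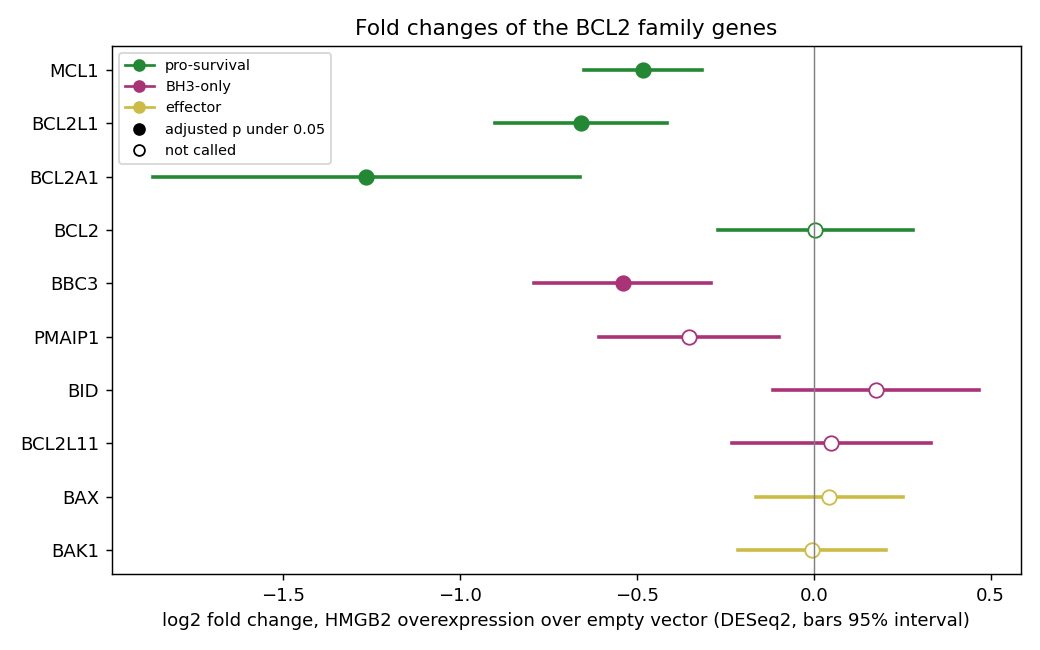
Log2 fold changes (horizontal axis, HMGB2OE over empty vector, DESeq2) of the 10 BCL2 family genes with 95% intervals as bars, coloured by role. Filled points passed an adjusted p under 0.05: 3 of 4 pro-survival genes (MCL1, BCL2L1 and BCL2A1) and 1 of 4 BH3-only genes (BBC3) lie below 0, and neither effector moved from 0 beyond its interval.

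The calls were compared across 14 alternative analyses of the same libraries. MCL1 and BCL2L1 were called lower in all 14, with log2 fold changes from -0.51 to -0.46 and from -0.73 to -0.55. BCL2A1 was called in 13, with log2 fold changes from -1.61 to -1.03. BBC3 was called in 11 (-0.62 to -0.48) and PMAIP1 in 3 (-0.41 to -0.23). The other 5 genes were called in none.

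The share of all tested genes called lower differed widely between these alternatives, so the count among the 10 genes is given beside it. There were 4 genes lower with the edgeR quasi-likelihood test (1.52% of all genes), with TMM factors in DESeq2 (2.63%), with a filter of 10 counts in 3 libraries (3.15%), with no independent filter (1.28%) and with the sum of the strand-specific columns (2.66%). Leaving out empty vector replicate 1, 2 or 3 gave 3, 4 and 4 genes lower, beside 1.13%, 1.47% and 9.1% of all genes. Leaving out HMGB2OE replicate 1, 2 or 3 gave 3 genes lower each time, beside 1.45%, 1.37% and 1.35%. The background share was thus much higher without empty vector replicate 3 than without any other library. The count was 5 with the replicate number as a block (6.23%), with the third-replicate term (8.68%) and when the third replicates were dropped (9.11%), the added gene each time being PMAIP1.

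**Figure D3:**
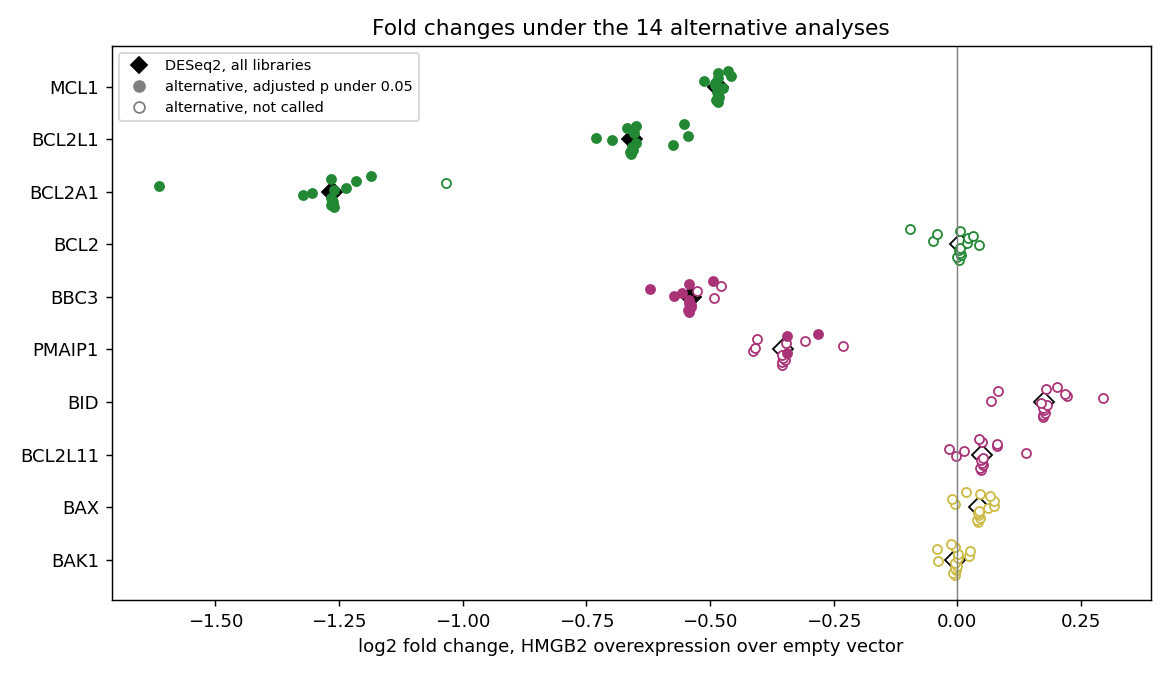
Log2 fold changes (horizontal axis, HMGB2OE over empty vector) of the 10 BCL2 family genes in DESeq2 with all libraries (diamonds) and under 14 alternatives (circles, filled where the adjusted p was under 0.05). All circles of MCL1 and BCL2L1 are filled and lie below -0.45, BCL2A1 has 1 open circle, BBC3 has 3, and the circles of BCL2, BCL2L11, BAX and BAK1 are open and fall on both sides of 0.

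Levels between genes were compared as normalized counts per kilobase of merged exons. With the empty vector MCL1 had the highest level (9524 per kilobase), followed by PMAIP1 (3167), BAX (1386), BCL2L1 (781), BAK1 (536), BID (389), BBC3 (319), BCL2A1 (106), BCL2L11 (71.7) and BCL2 (28.6). The ranges of BID and BBC3 overlapped and those of the other neighbours did not. Over all libraries MCL1 lay above 98.6% of the genes that average at least 10 normalized counts, and BCL2 above 26.7% of them. In HMGB2OE cells the order was MCL1 (6813), PMAIP1 (2482), BAX (1429), BAK1 (535), BCL2L1 (495), BID (440), BBC3 (219), BCL2L11 (74.2), BCL2A1 (43.8) and BCL2 (28.7). BCL2L1 thus came after BAK1 and BCL2A1 after BCL2L11, while BCL2L1 overlapped BID and BCL2A1 overlapped BCL2. The place of BCL2L1 depends on the column, since the one used left out most of the reads that the strand-specific columns assign to it. With the strand-specific sum BCL2L1 took 11.4% of the summed level with the empty vector, above BAX at 7.84%. In HMGB2OE cells it took 9.99%, below BAX at 10.5% but above BAK1 at 5.16%. By these means BCL2L1 came after BAX there, and its exchange with BAK1 was not seen.

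The summed level per kilobase of the 4 pro-survival genes was 10548, 10312 and 10458 in the empty vector libraries and 7666, 7349 and 7127 in the HMGB2OE libraries, a ratio of means of 0.707. The 4 BH3-only genes summed to 3700, 3635 and 4506 against 3172, 3050 and 3423, a ratio of 0.815. The effectors BAX and BAK1 summed to 1934, 1989 and 1843 against 1900, 2046 and 1946, a ratio of 1.02. The pro-survival sum is mostly MCL1 and the BH3-only sum mostly PMAIP1, so these sums describe those genes above all.

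As a share of the summed level of all 10 genes, the pro-survival genes took 65.2%, 64.7% and 62.2% with the empty vector and 60.2%, 59.1% and 57.03% in HMGB2OE cells. The effectors took 12.0%, 12.5% and 11.0% against 14.9%, 16.4% and 15.6%. Both shares were apart between the groups, one lower and the other higher, without a rise in the effector level itself. The BH3-only share overlapped, at 24.2 ± 2.30% against 25.6 ± 1.56% (SD, n = 3). MCL1 alone took 58.4 ± 2.06% with the empty vector and 54.2 ± 1.62% in HMGB2OE cells. With the sum of the strand-specific columns, which raises BCL2L1, the pro-survival share was 66.0 ± 1.33% against 60.7 ± 1.44%.

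The ratio of the summed pro-survival level to the summed effector level was 5.45, 5.19 and 5.67 with the empty vector and 4.03, 3.59 and 3.66 in HMGB2OE cells. These values did not overlap. The ratio of the summed pro-survival level to the summed BH3-only level was 2.85, 2.84 and 2.32 against 2.42, 2.41 and 2.08, and here the groups overlapped. The ratio of MCL1 to PMAIP1, whose proteins bind each other, was 3.33, 3.24 and 2.56 against 2.87, 2.93 and 2.47. These groups overlapped too, as both transcripts were lower in HMGB2OE cells and empty vector replicate 3 had the most PMAIP1. These are levels of transcripts, and MCL1 and NOXA proteins are known to turn over rapidly.

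**Figure D4:**
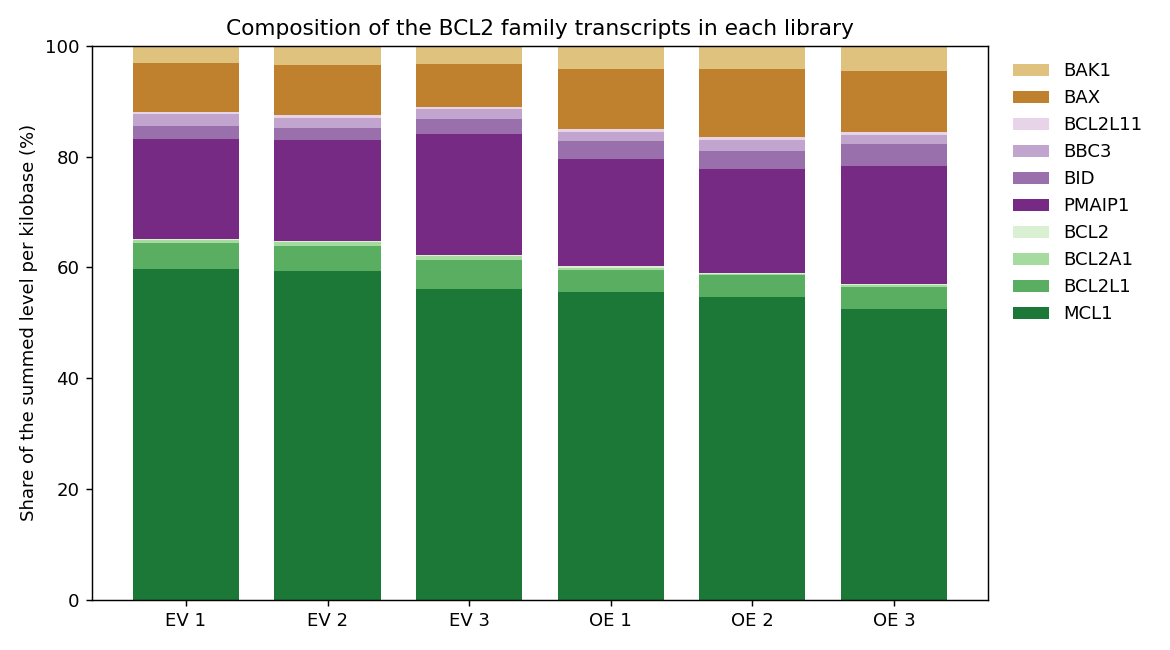
Share of the summed level per kilobase (vertical axis, percent) taken by each of the 10 BCL2 family genes in each empty vector (EV) and HMGB2OE (OE) library. Pro-survival genes are green, BH3-only genes purple and effectors brown. The green part runs from 62.2% to 65.2% in the EV bars and from 57.03% to 60.2% in the OE bars, and the brown part is larger in every OE bar.

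Among 17 other genes of the family or named for it, 15 had an adjusted p. Of these, 1 was higher and 0 were lower, beside 2.29% and 2.64% of all genes. The median log2 fold change was -0.12, and edgeR called 0 in either direction. The gene that rose was BNIP3, a hypoxia-induced BH3-like protein of mitochondrial clearance, with 7985, 7954 and 11131 normalized counts against 12320, 11601 and 14327 (log2 fold change 0.50, SE 0.16, DESeq2 adjusted p = 0.0386). Its empty vector replicate 3 stood closest to the HMGB2OE libraries, and edgeR did not call it (adjusted p = 0.131). Without that library the log2 fold change was 0.68 (DESeq2 adjusted p = 1.56e-09). When any other single library was left out, BNIP3 was not called (DESeq2 adjusted p from 0.0722 to 0.364). It was called in 7 of the 14 alternatives. At an unadjusted p under 0.05 the list held 6 genes, a count for which no share of all genes was taken. One of them, BCL2L15, which was chosen after its values were seen, had 18.2, 19.5 and 12.9 normalized counts against 7.27, 3.94 and 3.38 (DESeq2 adjusted p = 0.115).

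Of 23 caspase and mitochondrial death genes, 2 were higher and 1 was lower (1 and 1 with edgeR), beside 2.29% and 2.64% of all genes, with a median log2 fold change of 0.06. APAF1, the scaffold of the apoptosome that cytochrome c assembles, had 583.9, 653.7 and 669.7 normalized counts with the empty vector and 895.6, 898.3 and 847.5 in HMGB2OE cells (log2 fold change 0.47, SE 0.12, DESeq2 adjusted p = 0.00333). CASP6, an executioner caspase, had 369.7, 410.1 and 482.9 against 573.2, 552.6 and 588.6 (log2 fold change 0.44, SE 0.15, adjusted p = 0.0480). Both genes were above every empty vector library in each HMGB2OE library. BIRC3, which encodes the NF-kappaB-induced inhibitor of apoptosis cIAP2, had 729.4, 788.4 and 728.7 normalized counts against 456.9, 347.7 and 317.4. It fell by 0.9994 on the log2 scale (SE 0.16, DESeq2 adjusted p = 1.67e-07) and was called in all 14 alternatives, against 9 for APAF1 and 7 for CASP6.

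Of 15 death receptor pathway genes, 13 had an adjusted p and 0 were called by DESeq2, with a median log2 fold change of -0.01. The TRAIL receptors TNFRSF10A and TNFRSF10B had an unadjusted p under 0.05, with log2 fold changes of -0.27 and -0.37 (adjusted p = 0.185 and 0.108). They were chosen after their values were seen, and edgeR called 0 genes of this list. The same held for 14 genes whose proteins set the turnover or activity of MCL1 and the BH3-only proteins, such as the MCL1 ligase HUWE1. Here 13 had an adjusted p, 0 were called by DESeq2 or by edgeR, and the median log2 fold change was 0.01. Those with an unadjusted p under 0.05, chosen after their values were seen, were DYNLL1, a dynein light chain that tethers BIM and BMF (log2 fold change 0.43, DESeq2 adjusted p = 0.121), and GSK3B, a kinase that marks MCL1 for degradation (-0.31, adjusted p = 0.324).

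Of 18 transcription factors known to regulate genes of this family, 4 were lower and 0 were higher, beside 2.64% and 2.29% of all genes (with edgeR 2 and 0, beside 1.52% and 1.28%), with a median log2 fold change of -0.09. ATF4, the effector of the integrated stress response that induces PMAIP1 and BBC3, had 32208, 29993 and 31058 normalized counts against 23320, 24068 and 22124 (log2 fold change -0.42, SE 0.09, DESeq2 adjusted p = 1.95e-04). DDIT3, its target CHOP, had 497.0, 448.2 and 543.0 against 303.4, 263.0 and 312.9 (log2 fold change -0.76, SE 0.15, adjusted p = 4.65e-05). In both the groups were well apart. E2F1, a cell cycle factor that induces BH3-only genes, fell by 0.39 on the log2 scale (SE 0.10, adjusted p = 0.00457). NFKB1, a subunit of the NF-kappaB complex that induces BCL2A1, BCL2L1 and BIRC3, fell by 0.35 (SE 0.10, adjusted p = 0.0184).

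With edgeR, E2F1 (adjusted p = 0.0538) and NFKB1 (0.0799) were not called. DDIT3 was called in all 14 alternatives, ATF4 in 12, E2F1 in 9 and NFKB1 in 8. MITF, chosen after its values were seen, was not called (log2 fold change 0.17, adjusted p = 0.534). Without empty vector replicate 3, DESeq2 called 3 other BCL2 family genes, 7 caspase and mitochondrial death genes, 1 death receptor gene and 6 transcription regulators, in a setting that called 9.1% of all genes lower and 8.03% higher. There CASP6 had a log2 fold change of 0.55 (adjusted p = 0.00137) and NFKB1 of -0.41 (adjusted p = 7.96e-05). When any other single library was left out, neither gene was called. The DESeq2 adjusted p then ran from 0.251 to 0.544 for CASP6 and from 0.174 to 0.321 for NFKB1.

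**Figure D5:**
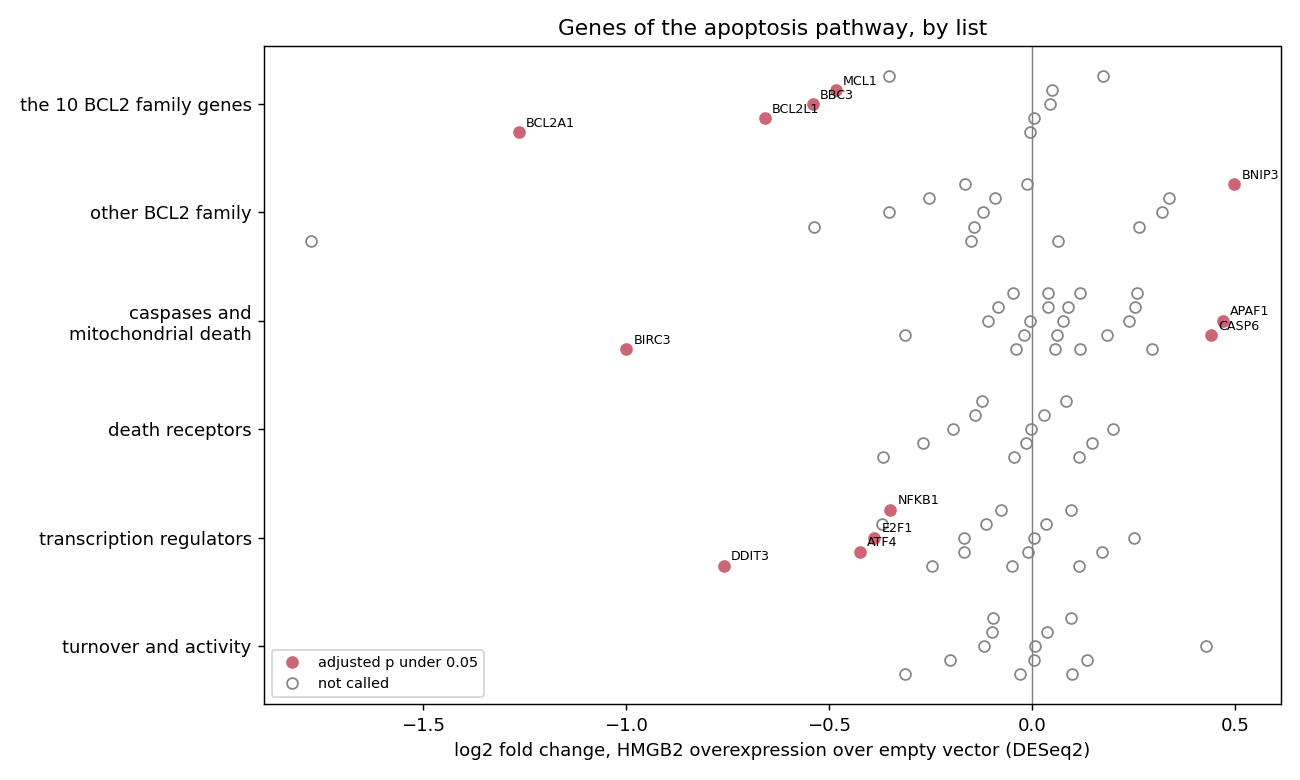
Log2 fold changes (horizontal axis, HMGB2OE over empty vector, DESeq2) of single genes with an adjusted p in 6 lists, spread vertically within a list for legibility. Filled and named points passed an adjusted p under 0.05: 4 of the 10 BCL2 family genes and 4 of 18 transcription regulators lie below 0, and no death receptor or turnover gene is filled.

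The genes whose log2 values followed a BCL2 family gene most closely over the 6 libraries were found among 13332 genes averaging at least 50 normalized counts. For MCL1 they were SLC31A1 (Pearson r 0.9993), FCER2 (0.9984) and APBB3 (0.9978), and 287 genes had r above 0.95. For BCL2A1 they were PARP6 (0.9928), SAT1 (0.9901) and SERPINB8 (0.9892), with 62 genes above 0.95. For PMAIP1 they were PCCB (0.9972), HLA-DRA (0.9964) and CT83 (0.9960), with 138 genes above 0.95. The 6 points share their group structure and the depth of each library, so such values describe these libraries only. SLC31A1, a copper importer, and FCER2, the low-affinity IgE receptor, were both lower in HMGB2OE cells (log2 fold changes -0.63 and -2.31, DESeq2 adjusted p = 7.97e-09 and 1.18e-13).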

How the data were processed

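RNA was measured in 6 A375 libraries (3 empty vector, 3 HMGB2OE) by poly(A) selection and sequencing. The deposited values are raw counts of reads for each gene, unnormalized, in the layout of STAR. The processing notes name bcl2fastq 2.20, FastQC, Trimmomatic, STAR and GRCh38 (hg38). The STAR version and annotation release are not given in the sources used here. The count column for either strand was used, which leaves out reads in places where genes of opposite strand overlap (ambiguous reads made up 10.7% to 11.4%). Symbols came from GENCODE 44 (57532 of 58302 IDs matched, and unmatched IDs held 0.0575% of counts). Counts were fitted with DESeq2 1.42.0 in R 4.3.3 (Wald test on group, default parameters, Benjamini-Hochberg adjustment over all genes, threshold 0.05), after the study's methods. Reads in genes numbered 45925053 to 56755212 per library, and BCL2A1, with 29 to 120 reads, is the gene whose precision depth limits most. Promoter windows came from RefSeq (GRCh38.p14).

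Alternatives were edgeR 4.0.16, TMM factors, a low count filter, no independent filter, the sum of the strand-specific columns, the replicate number as a block and leaving out each library. A term for the third replicates and a fit of replicates 1 and 2 alone were chosen after seeing the data. The rule for named genes took the 10 members, HMGB2, called genes of each list and the 3 genes most correlated with MCL1, BCL2A1 and PMAIP1, and uncalled list genes named beside them were chosen after their values were seen. The members and lists were chosen with earlier results of these data known.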

Additional observations from a re-analysis of the deposited data

How the results depend on the processing

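Of 140 log2 fold changes of the 10 genes under alternatives, 121 kept direction and side of the threshold, 4 lost the call (BCL2A1 in 1 and BBC3 in 3), 3 gained it (PMAIP1) and 12 changed sign, all in genes without a call. The count of BCL2 family genes lower ranged from 3 to 5 and of those higher stayed at 0. Sign changes were -0.10 for BCL2 in replicates 1 and 2 alone and 0.0003 for BAK1 with the stranded sum. Leaving out a library gave ranges of -0.050 to 0.044 (BCL2), -0.017 to 0.14 (BCL2L11), -0.011 to 0.075 (BAX) and -0.040 to 0.025 (BAK1).

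Over all genes, 432 were higher and 498 lower. edgeR gave 215 and 255, the third-replicate term 1372 and 1362, replicates 1 and 2 alone 1205 and 1408, and leaving out a library 155 to 1332 and 208 to 1509, the highest values being without empty vector replicate 3. Other BCL2 family genes called numbered 1, against 0 with edgeR and with no independent filter, 5 with the term, 4 in replicates 1 and 2 alone and 0 to 3 without a library. Caspase and mitochondrial genes numbered 3, against 8, 7 and 1 to 7 in the last 3 settings, and death receptor genes 0, against 2, 1 and 0 to 1. Transcription regulators numbered 4, against 2 with edgeR and 1 to 6 without a library. The cause of these shifts was not tested.

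With the replicate block, 888 genes were higher and 937 lower, PMAIP1 was called (log2 fold change -0.35, adjusted p = 2.48e-04), and the lists of other family, caspase and death receptor genes held 4, 7 and 1 called genes. Deviations of same-numbered libraries correlated at 0.0906, 0.142 and 0.349 for replicates 1, 2 and 3. Not every pair exceeded 0.1, so the number was not taken to pair the libraries, although the third replicates deviated together and opposite to the other libraries of the other group (-0.137 to -0.272). Not every library correlated best with its own number (empty vector replicate 1 did with HMGB2OE replicate 2, 0.212).

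Shares of the summed level moved by more than the spread between libraries in 14 of 20 cases with the length of the longest transcript, in 12 of 20 with the stranded sum and in 0 of 60 when a library was left out. Depth limits BCL2A1, at 29 to 120 reads per library.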

Other observations

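BCL2L14, a further gene named for the family that received no adjusted p, had 4.04, 1.77 and 2.15 normalized counts with the empty vector and 0 in each HMGB2OE library, too few reads for a comparison. BCL2L10 had 0 reads in all 3 count columns of every library. HRK, a BH3-only gene best known from neurons, had 105, 79.7 and 76.2 normalized counts against 62.7, 64.0 and 52.9 (DESeq2 adjusted p = 0.325), and BMF, a BH3-only gene of cells that lose attachment, had 165, 143 and 112 against 173, 175 and 181 (adjusted p = 0.482). The libraries of the groups did not overlap in either gene, and both were chosen after their values were seen.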
